A study of Homo sapiens with 10 samples.

Results

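Chromatin accessibility after 2 h of prexasertib was compared between SLFN11 knockout cells and parental cells of CCRF-CEM, a human T lymphoblast line from a leukemia. The comparison covers the 24636 regions called in either of the 2 peak lists of that time point, of 35505 regions called in any of the series' 10 lists. The knockout list held 23773 regions and the parental list 15447. In the knockout group the SLFN11 gene was knocked out and the cells were given 100 nM prexasertib for 2 h. The parental group was labelled wild-type, is described as SLFN11-positive, and was given the same drug at the same dose and for the same time. The series also holds, for each genotype, DMSO, 100 nM prexasertib for 4 or 6 h and 100 nM camptothecin for 4 h, with 1 library per group. The labels do not say how the gene was disrupted or whether the knockout line is a single clone.

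In ATAC-seq a transposase inserts adapters into DNA that is not covered by nucleosomes, so fragments pile up at promoters, enhancers and other open sites. Prexasertib inhibits CHK1, the checkpoint kinase that restrains origin firing and protects forks when replication is stressed. SLFN11 is recruited to stressed replication forks, where it is known to open chromatin and to block further replication, and cells that lack it tolerate drugs that damage replicating DNA better. The 2 h libraries are the earliest drug time point of the series. No annotation of build hg19 was used here, so regions are given by position only, and neither the SLFN11 gene nor the T lymphoblast markers could be used to check the labelled genotype and cell type.

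The 2 libraries differed in how much was called. The knockout list covered 15.95 Mb and the parental list 8.89 Mb, the highest and the lowest of the 10 libraries, a ratio of 1.79. The genome-wide background pileup, which is the pileup of reads the peak caller expects at a base and serves here as the measure of depth, was 2.1 in the knockout library and 1.48 in the parental library. The ratio of these backgrounds was 1.42, while in the DMSO pair it was 0.976. At background level a summit was called from a pileup of 10 in the knockout library and of 8 in the parental library, which is 4.76 and 5.42 times the background. With 1 library per group there is no replicate spread, so no test was made and no p-value is given for any difference. Intervals are at 95% confidence and cover counting error over regions, and regions of a library are not replicates.

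Regions present in the knockout list alone outnumbered those present in the parental list alone. A total of 9189 regions were called in knockout and not in parental cells (called here knockout-only), which is 37.3% of the regions called in either list. In the other direction 863 regions were parental-only, or 3.5%. Both lists shared 14584 regions, 59.2% of those called in either, 61.3% of the knockout list and 94.4% of the parental list. With 1 library per genotype at 2 h, the genotype cannot be told apart from the depth and length of its list in these counts.

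Regions were divided by the best −log10 q-value of any summit in them, the peak caller's significance of a summit against its local background. Those at 10 or more were taken as strong and those under 5 as threshold-level, with a class between. Of the knockout-only regions, 4198 were threshold-level, 3368 lay between and 1623 were strong, the last being 17.7% of them (16.9% to 18.5%). Of the parental-only regions, 681 were threshold-level, 165 lay between and 17 were strong, the last being 1.97% (1.15% to 3.14%). Threshold-level calls were thus 45.7% of the knockout-only regions and 78.9% of the parental-only regions. Since the q-value depends on the pileup as well as on the fold over the local background, a class is not an equal fold in both lists. Strong knockout-only regions had a median fold of 6.10 at a median pileup of 30, and strong parental-only regions 6.87 at 22.

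The same classes were counted within each whole list. Of the 4877 threshold-level regions of the knockout list, 86.1% were absent from the parental list. Of its 13625 strong regions, 11.9% were absent (11.4% to 12.5%). In the parental list 19.2% of 3544 threshold-level regions and 0.215% of 7909 strong regions (0.125% to 0.344%) were absent from the knockout list. So a strong parental region almost always had a knockout call, and a weak knockout region seldom had a parental one.

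Just inside and outside the limits, the knockout-only regions nearest to 10 had a −log10 q of 9.99 at chrX:112970085-112970941 and 10.002 at chr16:57728441-57729174. Those nearest to 5 had 4.996 at chr12:71401657-71402261 and 5.004 at chr2:43361131-43361812. Among parental-only regions the nearest to 10 had 9.56 at chr19:57018978-57019653 and 10.04 at chr5:28217049-28217531, and the nearest to 5 had 4.97 at chr2:242973611-242974333 and 5.01 at chr9:114699916-114700607. Regions of neighbouring classes therefore met at the limits without a gap.

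Knockout-only regions were also narrow. Their longest peak had a median width of 378 bp, against 779 bp for the shared regions in the same list. The strong ones had a median of 527 bp and the threshold-level ones 323 bp. Parental-only regions had a median of 267 bp, against 539 bp for the shared regions in the parental list. Several summits in a region were present in 10.3% of knockout-only and 24.5% of shared regions of the knockout list, and in 0.927% of parental-only and 19.8% of shared regions of the parental list.

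The share found in the other genotype climbed with strength, along different curves in each direction. Of knockout regions, 11.5% were called in parental cells at a −log10 q of 2 to 3, 15.1% at 3 to 5, 36.1% at 5 to 10, 72.9% at 10 to 20 and 96.7% at 20 to 50. Of parental regions, 70.0% were called in knockout cells at 2 to 3, 87.1% at 3 to 5, 95.9% at 5 to 10, 99.7% at 10 to 20 and 99.9% at 20 to 50. The knockout curve lay below the parental one in each of these classes, and from 50 to 100 the shares met, with 1910 of 1913 knockout regions and 178 of 179 parental regions called in the other genotype. At 100 or more, 130 of 132 knockout regions were called in parental cells and 86 of 86 parental regions in knockout cells.

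The DMSO pair had the same arrangement with a smaller gap, although its 2 backgrounds were nearly equal. There 588 of 10799 strong knockout regions (5.44%) were not called in parental cells, and 69 of 7869 strong parental regions (0.877%) were not called in knockout cells. At 6 h of prexasertib the count of strong knockout regions without a parental call was 240 of 12639 (1.90%), and that of strong parental regions without a knockout call was 451 of 13214. Set beside these, the 1623 of 13625 strong knockout regions at 2 h is the largest such count of these 3 pairs.

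**Figure D1:**
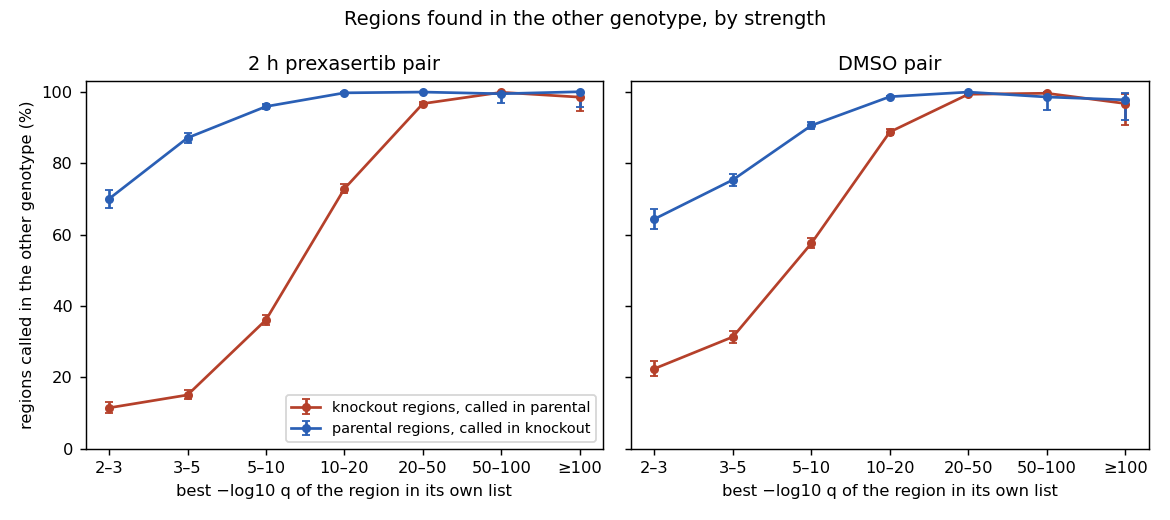
Share of regions called in the other genotype (%, vertical axis) by the best −log10 q of the region in its own list (horizontal axis), for the 2 h prexasertib pair (left) and the DMSO pair (right), with exact 95% intervals. At 2 h the knockout regions (red) run from 11.5% to 96.7% between the lowest class and the class of 20 to 50, and the parental regions (blue) from 70.0% to 99.9%.

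Most of the strong knockout-only regions were open in the parental line under some other condition. Of the 1623, 93.5% (92.2% to 94.6%) were called in at least 1 of the other 4 parental libraries, which did not enter the choice of the regions. The share was 75.2% for the class between and 49.8% for threshold-level regions, and 66.8% over all knockout-only regions. The background is 64.8%, the share of all regions missing from the parental 2 h list that were called in another parental library, a set that holds every region known from other parental libraries alone. Over all strengths the share of the knockout-only regions was near this background, and that of their strong members was higher. The background includes the knockout-only regions themselves and is not matched for strength. The part of strength in the higher share was not tested.

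Single libraries gave the same order of classes. Strong knockout-only regions were called in 49.1% of cases in the parental DMSO library, where the background over all regions missing from the parental 2 h list is 13.9%, in 63.6% at 4 h (background 20.1%), in 81.8% at 6 h (43.5%) and in 79.5% with camptothecin (36.0%). In the other knockout libraries the shares were 82.7% with DMSO, 87.7% at 4 h, 89.7% at 6 h and 73.9% with camptothecin, while over all 13625 strong knockout regions they were 96.9%, 97.9%, 98.4% and 95.1%. Threshold-level knockout-only regions recurred in 28.1%, 31.6%, 39.9% and 21.2% of cases in those 4 knockout libraries. Over all 4877 threshold-level knockout regions, which include them, the shares were near these, with 31.9%, 36.6%, 44.2% and 25.0%. In the parental libraries the threshold-level knockout-only regions had 11.4%, 15.9%, 32.7% and 29.4% in the same order, each below the background given above. The parental 6 h and camptothecin libraries, with 22834 and 21432 regions, have longer lists than the parental 2 h library, and the part of list length in these shares was not tested.

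Parental-only regions recurred about as often in the opposite line as in their own. Of the 863, 50.4% (47.0% to 53.8%) were called in at least 1 other knockout library and 53.8% in at least 1 other parental library. The background for the first share is 57.6%, that of all regions missing from the knockout 2 h list. Of the 17 strong ones, 12 were called in another knockout library. In the DMSO libraries, 22% of parental-only regions had a knockout call, against a background of 16% over all regions missing from the knockout 2 h list, and 15.4% had a parental call. Over all 15447 regions of the parental 2 h list 83.6% had a parental DMSO call, and over its 3544 threshold-level ones 52.0%. Of the 14584 shared regions, 98.9% were called in at least 1 other parental library. The shares in the opposite line and in the own line thus have unlike backgrounds.

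**Figure D2:**
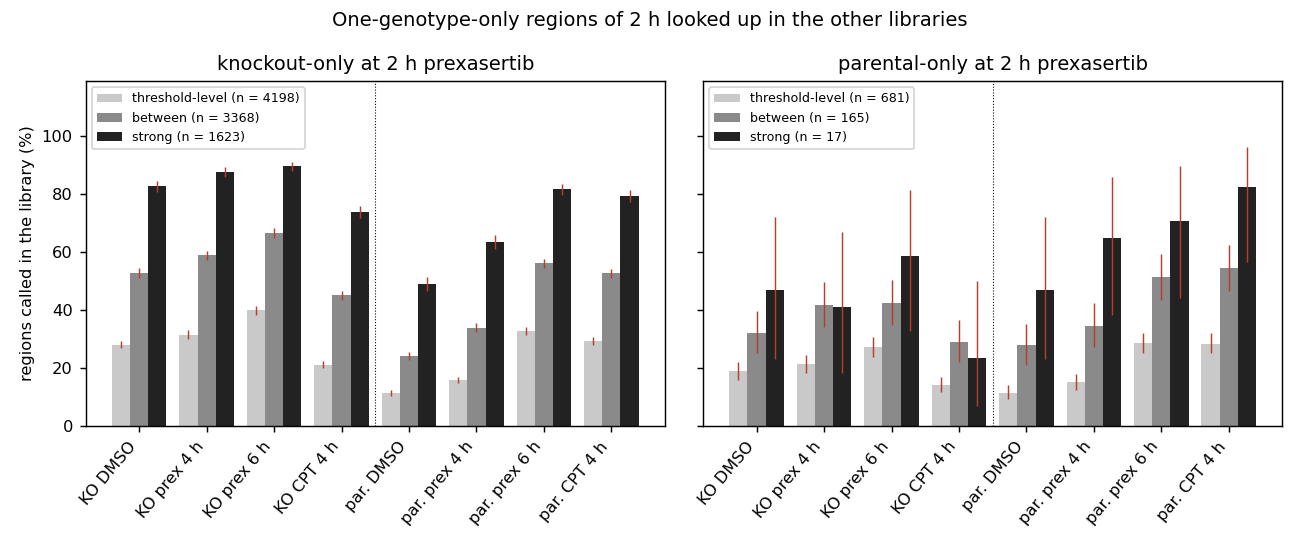
Share of the 2 h knockout-only regions (left) and parental-only regions (right) called in each of the other 8 libraries (%, vertical axis), by strength class, with exact 95% intervals in red. KO is the knockout line, par. the parental line, prex prexasertib and CPT camptothecin; strong knockout-only regions reach 81.8% in the parental 6 h library and 49.1% in the parental DMSO library, while the intervals of the 17 strong parental-only regions are wide.

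Few regions kept to 1 genotype through every condition. In all 5 knockout libraries and no parental library there were 128 of the 9189 knockout-only regions (1.39%), of which 27 were strong and 31 threshold-level. In all 5 parental libraries and no knockout library there were 2 of the 863 parental-only regions. Calls seen once in the whole series were more frequent: 1562 knockout-only regions (17%) and 301 parental-only regions (34.9%) were called in no other library of either line. Strong regions made up 13 of the 1562. In the opposite extreme, 643 knockout-only regions were called in all 8 other libraries, 439 of them strong, as were 10 parental-only regions. These 643 and 10 are regions missing from 1 list of the series, the 2 h list of the other genotype.

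With DMSO alone, 47.2% of the knockout-only regions were called in neither genotype, 30.0% in knockout cells only, 16.8% in both and 5.94% in parental cells only. The strong ones were distributed otherwise: 716 (44.1%) were called in both DMSO libraries, 627 (38.6%) in the knockout one only, 199 (12.3%) in neither and 81 (4.99%) in the parental one only. Thus 82.7% of strong knockout-only regions were called in untreated knockout cells. The 627 regions are the strong ones with the same direction in DMSO and with the drug. Of the parental-only regions 69.3% were called in neither DMSO library, 15.3% in the knockout one only, 6.72% in both and 8.69% in the parental one only.

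Later time points held most of the 199 strong knockout-only regions without any DMSO call. Of these, 156 (78.4%) were called again in knockout cells at 4 or 6 h, and 89 at both times. That is a lower share than over all 13625 strong knockout regions, with 97.9% called at 4 h and 98.4% at 6 h. In the parental line 130 of the 199 (65.3%) were called at 4 or 6 h. At 6 h alone 118 (59.3%) were, against 43.5% of all regions missing from the parental 2 h list. Of the 199, 20 were called at both later times in knockout cells and at neither in parental cells. Among the 2780 threshold-level knockout-only regions without a DMSO call, 37.5% were called again in knockout cells at 4 or 6 h. All 4877 threshold-level knockout regions had 36.6% at 4 h and 44.2% at 6 h. Parental-only regions without a DMSO call numbered 598, 6 of them strong, and 4 of those 6 were called again in parental cells at 4 or 6 h.

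The 10 knockout-only regions with the highest −log10 q were called in all 4 other knockout libraries, and 9 of them in at least 1 other parental library. The first, chr18:18516087-18516362, had a −log10 q of 174 in knockout cells at 2 h, and of 170 with DMSO, 152 at 4 h, 194 at 6 h and 172 with camptothecin. In parental cells it had 164 at 4 h, 185 at 6 h and 182 with camptothecin, and was not called with DMSO or at 2 h. Its summit stood 429 times above the genome-wide background in knockout cells at 2 h, but the authors' fold over the local background was 3.09, so its surroundings were high as well. That region and the third, chr8:43822265-43822799, with 74.3 in knockout cells at 2 h and a fold of 5.57, share this pattern of parental calls. The second, chr2:92281257-92281523, had 115 in knockout cells at 2 h and was called in parental cells with DMSO, at 6 h and with camptothecin, at 96.6, 146 and 132.

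One of the 10 had no parental call in any condition. This region, chr10:42542940-42543899, had a −log10 q of 71.4 in knockout cells at 2 h, and of 55.9 with DMSO, 68.8 at 4 h, 68.6 at 6 h and 23.1 with camptothecin. Its summit stood 107 times above background at 2 h and between 78.2 and 118 times in the other 4 knockout libraries. The authors' fold over the local background was between 2.9 and 4.62 in the 5 knockout libraries, so its surroundings were high as well. Over all knockout-only regions the median height at 2 h was 8.1 in knockout cells. Whether reads from repeated sequence raise the pileup at this region, or at others of the 10, was not tested.

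The other 6 were called in every library except the parental 2 h one. The region chr12:132166683-132167247 had a −log10 q of 51.7 in knockout cells at 2 h and between 14.4 and 38.0 in the other knockout libraries, against 13.2, 24.1, 35.0 and 38.5 in parental cells with DMSO, at 4 h, at 6 h and with camptothecin. The region chr5:171710192-171711492 had 48.7 in knockout cells at 2 h, against 8.43, 27.5, 41.6 and 11.3 in the same order of parental libraries. For chr7:139876426-139877301 the values were 44.3 in knockout cells at 2 h and 6.85, 12.4, 18.7 and 8.89 in those parental libraries. Since the regions were ranked by the knockout 2 h value, these values are a description. The last 3 of the 10 were chr8:119123948-119124614, chr10:70586896-70588267 and chr15:23377907-23378387, with 44.4, 41.6 and 41.3 in knockout cells at 2 h.

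The 10 highest knockout-only regions had a −log10 q of 41.3 to 174 and widths of 209 to 1171 bp at 2 h, and the 10 highest parental-only regions 12.8 to 54.3 and 203 to 357 bp. The first, chr2:89868577-89868873, had a −log10 q of 54.3 in parental cells at 2 h and was called in no other library of the series. The second, chr3:197825797-197826022, had 33.8 with DMSO, 55.1 at 4 h and 50.6 at 6 h in knockout cells, and 36.0 at 2 h, 61.2 at 6 h and 36.3 with camptothecin in parental cells. The fourth, chr8:43761665-43761974, had 26.9, 21.2, 32.2 and 24.1 in knockout cells with DMSO, at 4 h, at 6 h and with camptothecin, against 20.9 in parental cells at 2 h, and was called in all 8 other libraries. So the knockout 2 h library was the one that lacked it. Over the 10, 7 were called in at least 1 other knockout library, 4 in the parental DMSO library and 2 in no other library.

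Among the 128 regions of the knockout line alone, chr10:42542940-42543899 was followed by chr7:100080949-100081710, with a −log10 q of 23.3 at 2 h and of 13.5, 16.5, 14.7 and 10.4 in knockout cells with DMSO, at 4 h, at 6 h and with camptothecin. Next came chr5:94168324-94168900 with 19.7 at 2 h and 12.4, 10.8, 9.47 and 3.33 in those libraries, and chr7:44499939-44500594 with 19.3 at 2 h and 7.98, 7.23, 11.7 and 5.24. These were ranked by the 2 h value as well. The remaining 6 of the 10 strongest were chr4:1794518-1795456, chr9:139971752-139972456, chr17:79481455-79482230, chr6:158652850-158653893, chr15:92396453-92397520 and chr13:113343821-113344944, between 15.5 and 18.7 at 2 h.

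The 2 regions of the parental line alone were chr14:44272393-44273013 and chr7:145699760-145700200. The first had a −log10 q of 9.24 in parental cells at 2 h and of 7.02, 5.09, 7.73 and 11.99 with DMSO, at 4 h, at 6 h and with camptothecin. The second had 6.65 at 2 h and 2.13, 5.23, 5.43 and 5.66 in those libraries. Neither reached the strong class at 2 h.

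**Figure D3:**
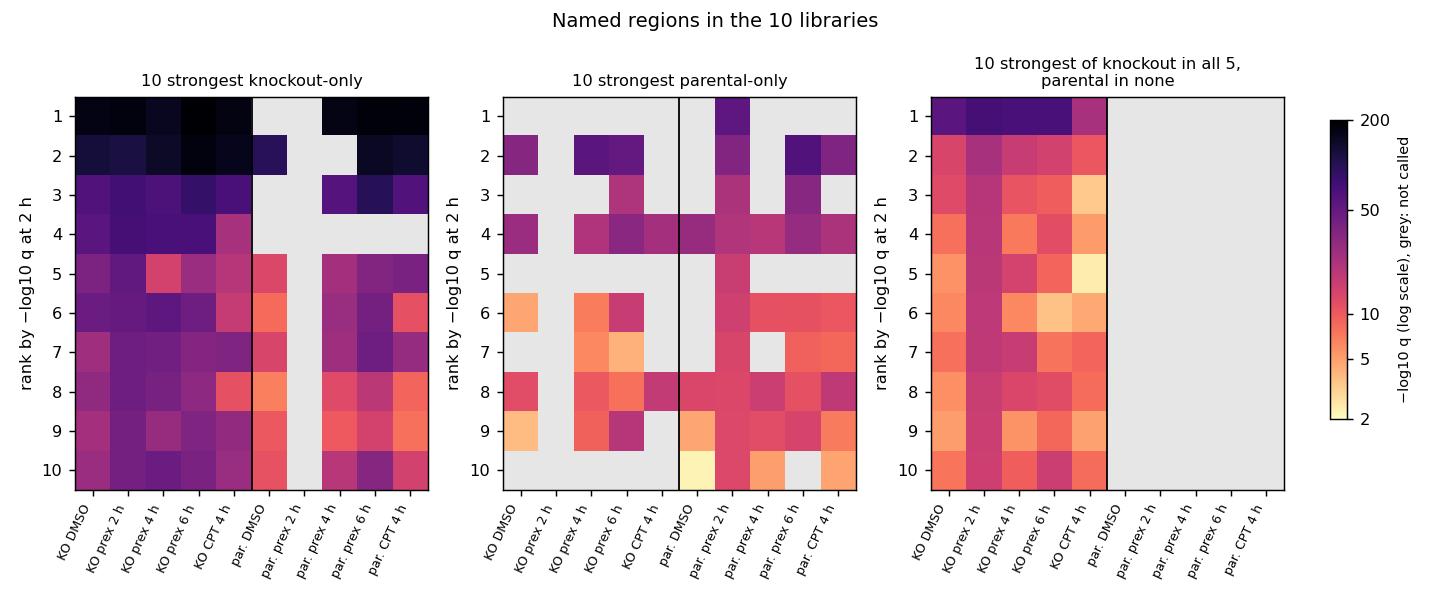
Best −log10 q (colour, log scale; grey where not called) of the 10 strongest knockout-only regions, the 10 strongest parental-only regions and the 10 strongest regions called in all 5 knockout and no parental library, with 1 region per row and 1 library per column. In the left panel 9 of 10 rows have parental calls outside the 2 h column, and the fourth row has none.

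Regions called in both lists were higher and wider in knockout cells. Summit height, the pileup at the summit divided by the library's genome-wide background, had a median of 22.9 in knockout cells and 16.9 in parental cells over the shared regions. The median log2 ratio of knockout over parental height was 0.35 (0.34 to 0.36) over 14555 regions with a recovered pileup, and 82.5% of them were higher in knockout cells. At least 2-fold higher were 838 (5.76%), and at least 2-fold lower 24 (0.165%). The ratio depends on the scaling: it was 0.13 over the local background and 0.86 before any division, so that its direction held and its size did not.

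Longest peaks had a median of 779 bp in knockout cells and 539 bp in parental cells. The median log2 width ratio was 0.40 (0.39 to 0.41), and 87.2% of the shared regions were wider in knockout cells. Regions at least 2-fold wider numbered 2482 (17%) and at least 2-fold narrower 53 (0.363%). Both measures were raised together in 74.1% of regions. Over the regions called in both lists of the other pairs the width ratio was 0.21 in DMSO, where the background ratio was 0.976, and 0.21 at 4 h, where it was 1.4. The part of depth in the width ratio was not tested.

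The shift was present among low and high shared regions alike, when they were cut by mean height into 5 groups of near-equal size. The median log2 height ratio was 0.21 in the lowest group, 0.39, 0.43 and 0.40 in the next ones and 0.32 in the highest. The width ratio was 0.50, 0.58, 0.46, 0.34 and 0.26 in the same order. Height was thus shifted least among the lowest regions and width least among the highest.

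**Figure D4:**
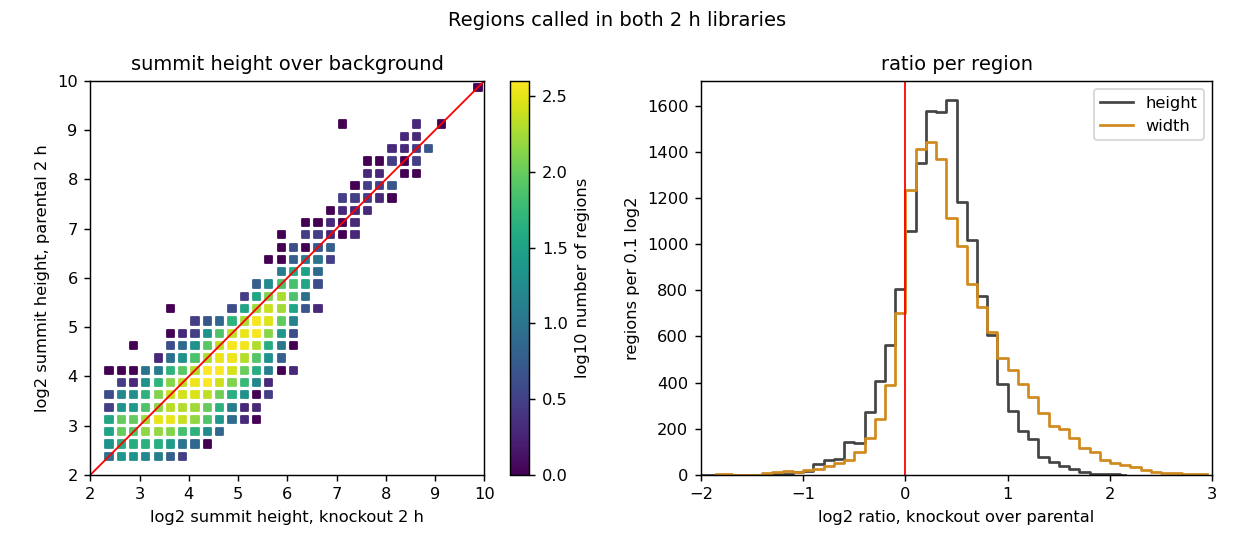
Left, log2 summit height over background in knockout (horizontal) and parental (vertical) cells at 2 h for the regions called in both lists, coloured by the log10 number of regions, with the line of equal height in red. Right, number of regions per 0.1 log2 of the knockout over parental ratio of height and of width, whose medians are 0.35 and 0.40.

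The same height ratio was 0.40 in the DMSO pair, where the backgrounds were 1.59 in knockout and 1.63 in parental cells. It was −0.095 at 4 h, −0.47 at 6 h and −0.57 with camptothecin. Over the local background the DMSO ratio was 0.14, against 0.13 at 2 h, so on both of these scales the values at 2 h and with DMSO were close. Before division it was 0.36 with DMSO, against 0.86 at 2 h, so on that scale they were not. At 6 h and with camptothecin the ratio was negative on all 3 scales, while at 4 h it was −0.030 over the local background and 0.39 before division, so that its sign there depends on the scaling. These later pairs also have unequal backgrounds, 1.99 in knockout and 1.52 in parental cells at 6 h, and the part of depth in them was not tested.

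Where knockout-only regions could be measured in both DMSO libraries, the strong ones were shifted a little more than the rest. Over 716 strong regions the median log2 height ratio of knockout over parental was 0.48 (0.43 to 0.50), against 0.40 over all 14206 regions measured in that pair. The ratio was 0.19 over 243 threshold-level regions and 0.36 over all 1547 knockout-only regions. Shared regions whose knockout height at 2 h lay in the same range as that of the knockout-only regions had 0.33. For the 58 parental-only regions it was 0.05 (−0.10 to 0.16), an interval that holds 0. At 6 h the strong and the threshold-level knockout-only regions both had −0.27 and the parental-only regions −0.26, against −0.47 over all regions measured. With camptothecin the strong ones had −0.34 and the threshold-level and parental-only ones −0.27, against −0.57 over all. At those conditions the lesser shift was thus shared by all 3 sets. Shared regions in the same height range were also shifted less than all regions, with −0.35 at 6 h and −0.52 with camptothecin. At 4 h the sets differed. The strong ones had 0.05, the threshold-level ones −0.16 and the parental-only ones −0.28, against −0.095 over all regions measured.

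The 5 regions with the highest and the 5 with the lowest height ratios were taken among the 7739 that were strong in both lists. The highest ratio, a log2 of 1.64, was at chr9:129676820-129677717, with a height of 52.9 in knockout and 16.9 in parental cells at 2 h. There the other knockout libraries had 41.4, 43.8, 37.6 and 33.9 with DMSO, at 4 h, at 6 h and with camptothecin, and the other parental libraries 20.8, 38.5, 43.3 and 28.4. The next was chrX:24167453-24168728 with 1.52, where the knockout line had 60.0 at 2 h and 43.1 to 61.0 elsewhere, and the parental line 21.0 at 2 h and 26.3 to 38.7 elsewhere. The other 3, chr20:61493071-61493632, chr7:35076869-35077754 and chr21:18884758-18885871, had between 1.45 and 1.47. Over the 5 libraries of each line the genotypes did not overlap in the regions on chromosomes X and 7. On chromosome 7 the knockout line had 44.3 to 53.8 and the parental line 19.6 to 31.8. In the regions on chromosomes 9, 20 and 21 the genotypes overlapped. These regions were picked by their 2 h ratio, and the share of all regions without an overlap was not counted.

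At the low end, the 3 lowest ratios each had 1 of the 2 h libraries apart from the other libraries of its line. At chr11:10530762-10531276 the log2 ratio was −2.12, with a height of 131 in knockout and 572 in parental cells at 2 h. The other knockout libraries had 489, 491, 450 and 339, so that the knockout 2 h library was the low one. At chr1:171308440-171309039 the ratio was −1.63, with 13.3 in knockout and 41.3 in parental cells at 2 h. Here the parental 2 h library was the high one, since the parental line had 7.55 at 4 h and 6.23 with camptothecin and no call with DMSO or at 6 h. At chr9:66846731-66846981 the ratio was −1.08, with 16.7 in knockout and 35.2 in parental cells at 2 h and between 27.0 and 41.4 in the other 8 libraries. The remaining 2 were chr8:145912529-145913324 with −0.99 and chr14:19000417-19000830 with −0.90. In the region on chromosome 8 the 2 h libraries did not stand apart: parental cells had 26.4 at 2 h and 28.9 at 6 h. In the region on chromosome 14 parental cells had 25.7 at 2 h, against 16.6 at 4 h, 17.7 at 6 h and 15.2 with camptothecin. Knockout cells had 13.8 there at 2 h, against 20.1 with DMSO, 28.6 at 4 h and 23.6 at 6 h. Each 2 h library thus lay outside the range of the other libraries of its line that called this region.

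Knockout-only regions lay about as far from shared regions as shared regions lay from each other. The nearest shared region lay a median of 37.4 kb away from a knockout-only region and 55.5 kb from a parental-only region, against 36.5 kb between shared regions. Within 2 kb of a shared region were 3.41% of knockout-only, 2.9% of parental-only and 2.61% of shared regions. Runs of at least 5 neighbouring regions that were called in 1 genotype only, over all its libraries, numbered 30 for the knockout line and 6 for the parental line. They are set against 7068 regions of the series called in knockout libraries alone and 4979 in parental libraries alone.

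None of these runs had a strong region at 2 h, and 29 of the 30 knockout runs had a call at that time. The knockout run with the most regions, chr3:18153093-18424746, held 7, of which 5 were called at 2 h, with a highest −log10 q of 5.65 at that time. A run at chr7:36763766-36978068 held 5 regions, 4 of them called at 2 h, with a highest value of 9.39. Each of these runs had 15 calls over the 5 knockout libraries. Of the 6 parental runs, 4 had a call at 2 h, each with 1 region called.

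By chromosome, knockout-only regions made up between 29.7% (27.2% to 32.4%) of the regions called in either list on chromosome 19 and 47.3% (41.8% to 52.8%) on chromosome 21. The shares on chromosomes 18, 20 and X were 42.7%, 41.7% and 41.7%. Parental-only regions ran from 1.21% on chromosome 19 to 6.19% on chromosome 8. Strong knockout-only regions had another order, from 4.79% on chromosome 13 to 10.6% on chromosome 22, with 8.56% on chromosome 19. So chromosome 19 was lowest for knockout-only regions of all strengths and the second highest for strong ones. The median log2 height ratio of shared regions was positive on every chromosome, from 0.30 on chromosome 4 to 0.42 on chromosome 21, and in DMSO from 0.31 on chromosome 4 to 0.50 on chromosome 19.

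**Figure D5:**
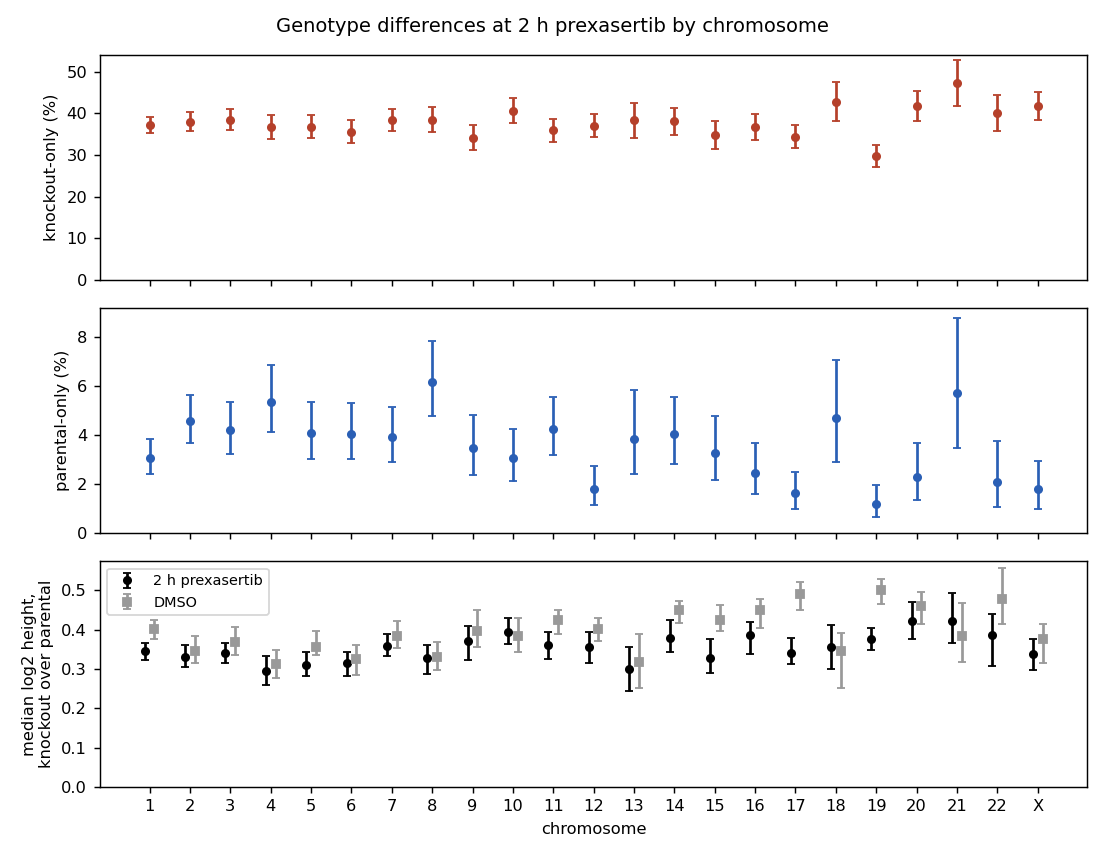
By chromosome (horizontal axis), the share of regions called in either 2 h list that were knockout-only (top, %) and parental-only (middle, %), and the median log2 height ratio of knockout over parental in regions called in both lists (bottom) at 2 h prexasertib and in DMSO. Bars are 95% intervals over regions; the top panel has its lowest point at chromosome 19 (29.7%) and its highest at chromosome 21 (47.3%).

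When the knockout summits were rescaled to the parental background of 1.48 and those under the parental list's lowest −log10 p of 4.55 were dropped, 7164 knockout-only regions were left of 9189. The threshold-level ones lost the most, with 2173 of 4198 (51.8%) left, while those between and the strong ones all stayed. Parental-only regions then numbered 1140. Measured against the parental list's own line for strong regions after rescaling, 555 knockout-only regions were strong, a choice added after the data were seen. Knockout-only regions were thus more numerous than parental-only ones after this rescaling, with fewer strong members on the rescaled line. The rescaling drops knockout summits and restores no parental call, and the part of depth in these counts was not tested.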

How the data were processed

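The series holds 10 ATAC-seq libraries, 1 per group, and 1 peak list per library in narrowPeak layout. The submitters' processing notes name build hg19 and the tools MACS2 2.1.2, Picard 2.9.2, SAMtools 1.8, BWA 0.7.17, Trimmomatic 0.39 and Trim Galore 0.6.2. Not given in the sources used here are the parameters, duplicate removal, any shift of reads for the transposase and any control library. For each summit the deposited lists give a −log10 q-value, whose minimum in every list lay just above 2, and a −log10 p-value. The deposited fold is the ratio of summit pileup to local background, each with 1 added. The deposited score matched the −log10 q times 10 without its decimals for 99.9885% of summits or more in each list. Each list was called by the authors on 1 library. The submitters note truncated raw reads for parental cells at 4 h of prexasertib, whose list was used as deposited.

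Lines with equal start and end were joined. Peaks on chromosomes 1 to 22 and X were kept, 23951 of the knockout and 15684 of the parental list at 2 h, and 1.99% and 1.93% of peaks on other sequences were left out. Overlapping peaks of any lists (1 bp or more) formed 1 region, and a library called each region that held one of its peaks. No read counts were used. Instead a whole pileup was solved from the deposited fold and −log10 p within 0.001, which gave one for 99.7% of summits in both 2 h lists, and the lowest background found is the genome-wide one. The summits not recovered were left out of heights. Shares have Clopper-Pearson intervals and medians order-statistic intervals, both at 95% confidence. The code was tested on simulated data.

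The members, strength limits and lists were chosen with earlier results of these data known. Regions were named by rule: the 10 highest by −log10 q in each set and the 5 highest and lowest height ratios. Gene lists, nearest genes, motifs and sequences need a genome of build hg19 and were not used here. Python 3.11.15, numpy 2.4.6, pandas 2.3.3, scipy 1.17.1 and matplotlib 3.10.9 were used.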

Additional observations from a re-analysis of the deposited data

Results flagged for a closer look

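The net change in the number of called regions between DMSO and 2 h of prexasertib had opposite signs in the 2 genotypes. Summit height did not differ in sign. Over regions called in all 10 lists, the median log2 height at 2 h over DMSO was 0.127 in knockout and 0.145 in parental cells. In knockout cells 5695 regions were gained and 1876 lost, a net of 3819, and in parental cells 2536 were gained and 2786 lost, a net of −250. Among strong regions the counts were 426 gained and 47 lost in knockout cells, against 112 gained and 146 lost in parental cells. The background pileup was 2.1 at 2 h and 1.59 with DMSO in knockout cells, and 1.48 at 2 h and 1.63 with DMSO in parental cells. In the other parental libraries the lists were longer than the 15697 regions of DMSO at a lower background, with 17571 regions at 4 h, 22834 at 6 h and 21432 with camptothecin against backgrounds of 1.33, 1.52 and 1.45 in the same order. The difference between the genotypes was not tested, since there is 1 library per group, and the part of depth in it was not tested.

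The median log2 height ratio of knockout over parental was 0.35 at 2 h of prexasertib, −0.095 at 4 h, −0.47 at 6 h and −0.57 at 4 h of camptothecin. It was singled out because its sign differs between conditions, and before division by the background the 4 h value was 0.39. The differences between these values were not tested.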

How the results depend on the processing

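Of 42 values recomputed under other settings, 14 stayed within the limits set for an unchanged value and 28 moved. Most are counts or shares, which have no direction to change. The median log2 height and width ratios stayed positive under each setting. No paired analysis was possible because each group holds 1 library, so no library could be left out of a group either. With only peaks at a −log10 q of at least 10 kept in both lists, knockout-only regions numbered 5857 and parental-only regions 141. With a reciprocal overlap of 50% the parental-only count was 4006 and the strong counts were 3664 knockout-only and 742 parental-only. With the knockout list shortened to the parental length each side had 2587, which equal lengths impose. Strong from a −log10 q of 20 gave 218 knockout-only and 4 parental-only regions, and from 5 gave 4991 and 182; strong on the rescaled scale gave 555 knockout-only regions, an alternative added after the data were seen. The share of knockout-only regions called in another parental library was 64.6% without the 4 h libraries, 22.8% in the DMSO library, 93.5% for strong regions, 73.3% after rescaling and 57.9% without the 6 h libraries (added after the data were seen). The share of parental-only regions called in another knockout library was 44.8%, 22%, 70.6%, 58.8% and 40.8% under the same settings. The median log2 height ratio was 0.13 over the local background, 0.86 before division, 0.38 over regions called in all 10 lists and 0.31 over regions strong in both lists. The width ratio was 0.38 over regions called in all 10 lists and 0.31 over regions strong in both. The stricter settings test fewer regions; for the others the cause was not tested. The low end differed between the 2 h libraries. At background level a summit at 4.76 times the background could be called in the knockout library but not in the parental one, where 5.42 times was the least.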

Other observations

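Part of the regions that were knockout-only at 2 h were knockout-only in other pairs as well. The 2 h set includes regions called in neither list of the other pair, 4340 of 9189 in DMSO. Shares over all regions called in either list leave such regions out, so these shares are on unlike bases. Called in both lists of the other pair were 1547 in DMSO, 2240 at 4 h, 3547 at 6 h and 2444 with camptothecin. In DMSO 2756 of them had the same direction, which is 30.0% of the 2 h set and 48.2% of the 5723 knockout-only regions of the DMSO pair; over all regions called in either DMSO list 26.7% were knockout-only. At 4 h the count was 2491 (27.1% of the 2 h set and 46.3% of the 4 h set), at 6 h 1828 (19.9% and 38.2%) and with camptothecin 1165 (12.7% and 45.6%), where knockout-only regions made up 23.4%, 17.3% and 10.7% of all regions called in either list. Some were parental-only in the other pair: 546 in DMSO, 603 at 4 h, 1043 at 6 h and 1852 with camptothecin. With camptothecin, then, more of them had the opposite direction than the same one.

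Of the 863 parental-only regions, 132 were knockout-only and 75 parental-only in DMSO, and with camptothecin 52 were knockout-only and 201 parental-only. The parental list is the shorter one in the DMSO pair, with 19954 regions in knockout and 15697 in parental cells, and the longer one in the camptothecin pair, with 18591 in knockout and 21432 in parental cells. The part of list length in these counts was not tested.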
